A study of Mus musculus with 20 samples.

Results

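Gene deserts are long stretches of chromosome without annotated genes, and the CTCF-bound regions inside them are described here in mouse embryonic stem cells. The 1921 desert regions were chosen by 2 conditions, a CTCF peak in each of 4 peak lists and a centre more than 50 kb from every gene span in the gene table of the same series. They were 5.87% (exact binomial 95% interval 5.62 to 6.13, counting error only) of the 32740 regions shared by the 4 lists, and the 4 lists together held 54729 merged regions. The cells had a 129 background and were either wild type (WT) or lacked thymine DNA glycosylase (TDG KO), with CTCF chromatin immunoprecipitation in 2 WT and 2 TDG KO libraries and RNA sequencing in another 2 and 2. Both genotypes were grown on mitotically arrested mouse embryonic fibroblasts in serum with LIF, and the fibroblasts were removed by repeated plating before the chromatin was fixed. Whether replicates were grown as separate cultures is not in the labels, and p-values cover the spread of these libraries alone, which could be technical in part. The labels also leave out whether a genotype was more than 1 line, so genotype and line cannot be told apart.

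CTCF is a zinc finger protein that binds a long DNA motif and stops the cohesin complex as it extrudes chromatin loops. CTCF sites in gene deserts often lie at the borders of topological domains or between a developmental gene and its distant enhancers. TDG removes 5-formylcytosine and 5-carboxylcytosine, the oxidised bases that TET enzymes make from 5-methylcytosine. The series title names 5-carboxylcytosine and CTCF binding to suboptimal sequences, and the comparison of TDG KO with WT bears on that question. Tdg RNA was 28.1 and 30.4 FPKM (fragments per kilobase of transcript, scaled to the mapped fragments) in the WT libraries and 5.50 and 4.74 FPKM in the TDG KO libraries.

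Sequence was at hand for few desert regions, those that happen to cover the start of a gene annotated in RefSeq but absent from the gene table. In 15 of the 1921 regions at least 150 bases lay inside a RefSeq promoter window of 300 bases (build GRCm38.p6, the primary sequence of mm10). These 15 are not a sample of the rest, since each sits at an annotated start. The search covered 3 strings from the core of the CTCF motif on both strands. The short one is the 7 letters AGNNGGC, where N is any base. The long one has 12 letters, the bases CC, then 3 free bases, then those 7 letters, so each long match holds a short one. The third is the long one without its last C. The 11-letter string was added after the sequences were seen. The long string was found in 5 of the 15 windows (33.3%). It stood in 45.0% of 1020 windows that overlapped other shared regions, in 6.95% of 30789 windows without a CTCF region, and in 8.61% of all 32851 windows of this length. The first 11 letters were found in 9 of 15 windows (60%), against 61.8% of the windows of other shared regions and 22.2% of those without a region. The 7-letter string stood in 73.3% of the 15, 85.1% of the other shared and 58.4% of the windows without a region. The median GC content of the 15 windows was 49.7% with 8 CpG dinucleotides, and that of the windows of other shared regions 59.8% with 19. Windows without a CTCF region stood at 52.3% with 6, so the 15 were nearer to these than to the other shared ones.

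The 5 windows with the long string are shown first, from the strongest to the weakest region, because their matches can be set beside the strength of binding. The last 2 windows hold neither the long string nor the 7 letters, and stand for regions with a divergent 3′ end of the core. Each run gives 200 bases upstream of the annotated start in the direction of the gene, 5′ to 3′, from RefSeq GRCm38.p6. Capitals mark the long string in the first 5 and the 11-letter string in the last 2.
Gm41429, chr16:18696524-18696723, plus strand: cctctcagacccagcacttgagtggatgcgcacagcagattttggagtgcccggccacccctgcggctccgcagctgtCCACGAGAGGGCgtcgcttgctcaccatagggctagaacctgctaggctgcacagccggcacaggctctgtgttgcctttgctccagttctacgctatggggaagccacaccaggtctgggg
Gm41099, chr14:19042016-19042215, plus strand: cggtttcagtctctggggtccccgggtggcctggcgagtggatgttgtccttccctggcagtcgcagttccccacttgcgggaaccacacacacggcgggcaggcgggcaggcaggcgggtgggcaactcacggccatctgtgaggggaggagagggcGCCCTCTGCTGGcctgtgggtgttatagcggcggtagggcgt
Gm39311, chr9:23581074-23581273, plus strand: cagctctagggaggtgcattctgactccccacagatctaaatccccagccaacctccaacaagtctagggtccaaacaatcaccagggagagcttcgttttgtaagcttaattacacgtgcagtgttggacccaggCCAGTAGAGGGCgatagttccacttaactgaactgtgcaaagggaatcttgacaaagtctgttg
Gm30107, chr8:114081141-114081340, minus strand: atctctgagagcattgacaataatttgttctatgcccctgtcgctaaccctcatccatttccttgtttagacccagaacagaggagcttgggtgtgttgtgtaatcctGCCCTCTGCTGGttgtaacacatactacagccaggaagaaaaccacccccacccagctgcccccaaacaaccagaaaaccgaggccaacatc
Gm32776, chr12:106146689-106146888, plus strand: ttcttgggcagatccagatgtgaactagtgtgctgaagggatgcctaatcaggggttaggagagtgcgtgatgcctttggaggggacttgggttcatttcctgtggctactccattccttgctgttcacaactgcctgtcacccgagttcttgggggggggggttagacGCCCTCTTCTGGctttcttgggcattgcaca
Gm31408, chr9:31559498-31559697, plus strand: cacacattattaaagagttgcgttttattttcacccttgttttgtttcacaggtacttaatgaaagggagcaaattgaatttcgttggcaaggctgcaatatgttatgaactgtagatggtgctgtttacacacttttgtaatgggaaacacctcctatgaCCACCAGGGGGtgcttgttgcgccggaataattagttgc
4930471G24Rik, chr13:47667350-47667549, plus strand: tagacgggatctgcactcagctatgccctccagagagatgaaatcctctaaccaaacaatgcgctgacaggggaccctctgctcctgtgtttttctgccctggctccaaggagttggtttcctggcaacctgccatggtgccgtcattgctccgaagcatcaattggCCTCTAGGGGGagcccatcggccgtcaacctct

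The match in Gm41429, read on its own strand, was CCACGAGAGGGC. In Gm41099 and Gm30107 it was CCAGCAGAGGGC, in Gm39311 CCAGTAGAGGGC and in Gm32776 CCAGAAGAGGGC. All 5 matches lay inside the CTCF region, with their middle between 6.5 and 57 bp from its centre. Gm41429, a noncoding RNA gene, marked a region at chr16:18696441-18696826, 66.7 kb from the nearest gene span. It ranked at 97.0 and 93.2 in WT replicates 1 and 2, then at 92.6 and 96.9 in TDG KO replicates 1 and 2. These ranks are percentiles among the 32740 shared regions of each list by the authors' peak score, with 100 the strongest. Gm32776 marked a region at chr12:106146687-106147054 that ranked at 21.4, 11.7, 11.8 and 32.3 in the same order. So the same 12-letter pattern stood in a region near the top and in one near the bottom of the lists. The strongest of the 15 regions, over the start of Gm31408 at chr9:31559368-31559907, had ranks of 98.7, 98.95, 99.1 and 95.9 and held CCACCAGGGGG, a match to the long string without its last C. The region over 4930471G24Rik lay 293 kb from any gene span, ranked at 67.9, 59.9, 52.9 and 71.0, and held CCTCTAGGGGG 3 bp from its centre. A match is a description of letters and not a tested site.

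Desert regions lay a median of 85.9 kb (quartiles 63.8 and 131 kb) from the nearest gene span. Beyond 100 kb lay 748 of them (38.9%), beyond 200 kb 215 and beyond 500 kb 11. The farthest, on chromosome 18, was 738 kb away and weak in every list, at ranks of 10.8, 17.5, 14.6 and 16.3 in WT replicates 1 and 2 and TDG KO replicates 1 and 2. The next, at chr8:100772730-100773205, was 712 kb away and ranked at 67.2, 62.5, 77.9 and 71.6. The farthest regions thus included both weak and strong ones. Just inside the threshold, 50.002 kb from a gene span, a region at chr12:18166419-18166685 ranked at 4.06, 3.07, 13.9 and 22.1. Just outside it, 49.999 kb from a gene span, a region at chr5:119741008-119741427 ranked at 80.0, 80.3, 83.0 and 93.6. With the next nearest regions added, mean ranks over the lists were 10.8, 67.5 and 49.6 just above 50 kb. Just below it they were 84.2, 50.2 and 58.6, so strength showed no clean step at the threshold.

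The name gene desert rests on the gene table. Set against RefSeq, 350 of the 1921 regions (18.2%) lay inside a RefSeq gene, 284 of them inside a long noncoding RNA gene, and 685 (35.7%) were more than 50 kb from every RefSeq gene. From protein-coding genes of RefSeq, 1770 (92.1%) were more than 50 kb away. The 685 had median ranks of 34.8, 37.1, 36.6 and 36.8 in the 4 lists. The 350 inside RefSeq genes had 41.6, 45.1, 42.5 and 45.8, higher than the 685 in every list.

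CTCF regions were sparser in the deserts than elsewhere, and relative to the rest of the genome shared regions more so than TDG KO-only regions. Between the first and last gene of each chromosome, sequence more than 50 kb from every gene span made up 548 Mb (20.6%). Desert regions numbered 3.497 per Mb there, and other shared regions 14.6 per Mb elsewhere. TDG KO-only regions, those called in each of the TDG KO lists but in no WT list, numbered 1.08 per Mb in deserts and 2.50 per Mb elsewhere. The ratio of desert to other density was 0.240 for shared and 0.431 for TDG KO-only regions.

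Neighbours were far apart. The nearest other shared region was a median of 35.04 kb (quartiles 11.2 and 100 kb) from a desert region and 11.8 kb (4.25 and 29.2 kb) from another shared region. No other shared region lay within 100 kb of 483 desert regions (25.1%), against 5.20% of the other shared regions. Within 5 kb of another shared region lay 264 desert regions (13.7%), against 28.5% of the others. Of 3700 intervals longer than 100 kb between genes, 1026 (27.7%) held a desert region. Of these intervals 592 held 1 region, 397 held 2 to 5 and 37 held more, up to 10. The 3 longest, of 2.04, 1.97 and 1.96 Mb, held 1 each.

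The fullest interval, from Mir6393 to Zdhhc25 on chromosome 15, was 0.804 Mb long and held 10 desert regions. Their median ranks were 38.8, 27.1, 38.1 and 41.1 in WT replicates 1 and 2 and TDG KO replicates 1 and 2. The interval from Gm5449 to Drd1, a dopamine receptor gene, on chromosome 13 was 0.525 Mb long and held 10 as well, a median of 10.9 kb apart. Their median ranks were 57.2, 42.8, 42.6 and 55.2, and their mean ranks spread from 8.98 to 93.7. Strong and weak regions thus stood side by side in one desert. Drd1 RNA was between 0.00428 and 0.00848 FPKM in the 4 libraries. Between Tmpo, a gene for a protein of the nuclear lamina, and the long noncoding RNA gene Rmst on chromosome 10, 9 desert regions lay in 0.899 Mb. Tmpo fell from 88.6 and 99.7 to 65.9 and 64.9 FPKM (log2 change -0.52, SE 0.073, limma adjusted p = 0.00142). Rmst was at most 0.118 FPKM.

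Desert regions were weaker than other shared regions in all 4 lists. Their median rank was 39.1 in WT replicate 1, 40.2 in WT replicate 2, 41.0 and 41.5 in TDG KO replicates 1 and 2. The medians of the other shared regions were 50.7, 50.6, 50.5 and 50.6. The mean difference was -10.2 ± 1.12 percentile points (SD, n = 4 lists, exact 2-sided sign-flip permutation test p = 0.13, the smallest that 4 lists allow). Peaks of desert regions were also narrower, by 23, 13, 28 and 20 bp at the median (mean -21.0 ± 6.27 bp, exact p = 0.13). Median widths were 258 and 254 bp in WT and 307 and 297 bp in TDG KO, against 281, 267, 335 and 317 bp for the others. The strongest decile of a list held 4.58% to 5.78% of the desert regions and 10.3% of the others. The share that lay in deserts was 7.51% (246 of 3274) in the weakest decile of shared regions by mean rank and 2.81% (92 of 3274) in the strongest.

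Median rank fell with distance before the desert threshold was reached. It went on falling up to the bin of 100 to 200 kb and changed little from there to 500 kb. The mean over lists of the median rank was 55.1 for shared regions up to 10 kb outside a gene span, 51.4 from 10 to 25 kb and 46.0 from 25 to 50 kb. It was 43.7 from 50 to 100 kb, 36.7 from 100 to 200 kb and 36.2 from 200 to 500 kb. Inside gene spans it was 48.8. The 11 regions beyond 500 kb stood at 44.9, too few for an order.

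**Figure D1:**
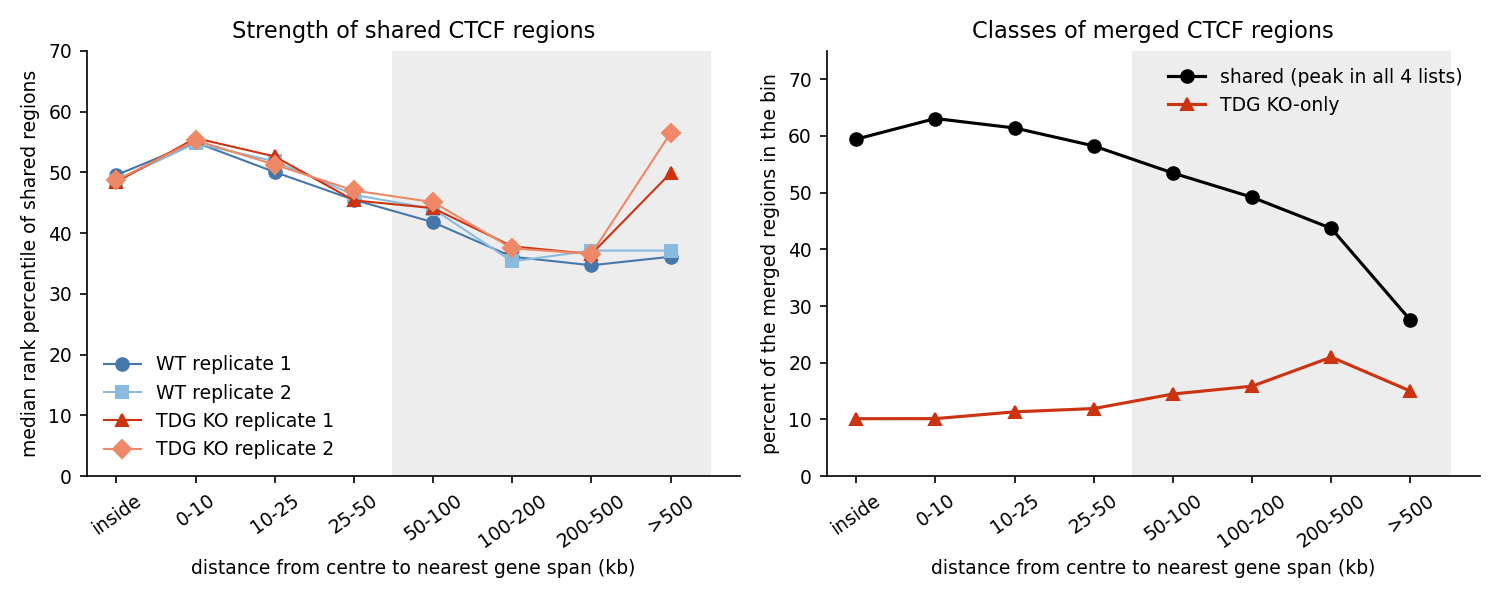
Left, the median rank percentile (100 strongest) of shared CTCF regions in each list against distance from the nearest gene span; right, the percent of merged regions in each distance bin that were shared or TDG KO-only. Grey marks distances over 50 kb. Ranks fall from about 55.1 near genes to 36.2 at 200 to 500 kb, the shared percent falls from 63.1 to 27.5, and the TDG KO-only percent is 10.1 near genes and 21.0 at 200 to 500 kb; the last bin holds 11 shared and 6 TDG KO-only regions.

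The regions of highest mean rank lay near the top of all 4 lists. At chr17:87571595-87571977, 64.2 kb from Epcam, an epithelial adhesion gene, the ranks were 99.7 and 99.9 in WT against 99.3 and 99.9 in TDG KO. At chr15:96936681-96937263, 57.9 kb from Slc38a4, an amino acid transporter gene, they were 99.9 and 99.9 in WT against 96.9 and 99.4 in TDG KO. At chr15:37120302-37120823, between Gm26766 and Grhl2, they were 99.8 and 99.8 in WT against 96.3 and 99.5 in TDG KO. Another 2 of the highest 5 lay at chr16:3122695-3123372, before the first gene of the chromosome, and at chr8:19979628-19980187. The weakest by mean rank, at chr9:82644098-82644331, ranked at 1.39 and 1.24 in WT against 0.034 and 0.029 in TDG KO.

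The class of a region differed between deserts and the rest of the genome. In deserts lay 5.87% of the shared regions, 10.1% (594 of 5885, interval 9.34 to 10.9) of the TDG KO-only regions and 7.92% (7.51 to 8.35) of 16011 regions with other patterns. Of 93 WT-only regions 3 lay in deserts (3.23%, 0.670 to 9.14). The TDG KO-only share was 1.72 times the shared one (1.59 to 1.86, counting error of the TDG KO-only share alone). The TDG KO lists were longer than the WT lists. With the same number of strongest peaks from every list, the ratio was 1.64. Shared regions made up 50.7% of the regions of any class in deserts and 60.5% of those elsewhere, and TDG KO-only regions 15.7% and 10.4%. With distance the TDG KO-only share went from 10.1% of regions up to 10 kb from genes to 14.5% at 50 to 100 kb, 15.9% at 100 to 200 kb and 21.0% at 200 to 500 kb, and was 15.0% (6 of 40) beyond.

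Among single peaks, 5.99% (2294 of 38303) lay in deserts in WT replicate 1 and 6.12% (2270 of 37099) in WT replicate 2. The TDG KO lists held 6.74% (3272 of 48514) and 7.02% (3428 of 48833). Both TDG KO lists stood above both WT lists. The means were 6.05 ± 0.0917% and 6.88 ± 0.195% (SD, n = 2), a difference of 0.828 points (exact permutation test, 2-sided p = 0.333, the smallest that 2 against 2 lists allow). The lists with the higher share were also the longer ones. With the same number of strongest peaks from every list, the difference was 0.359 points in the same direction. How deeply the CTCF libraries were sequenced is unknown.

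**Figure D2:**
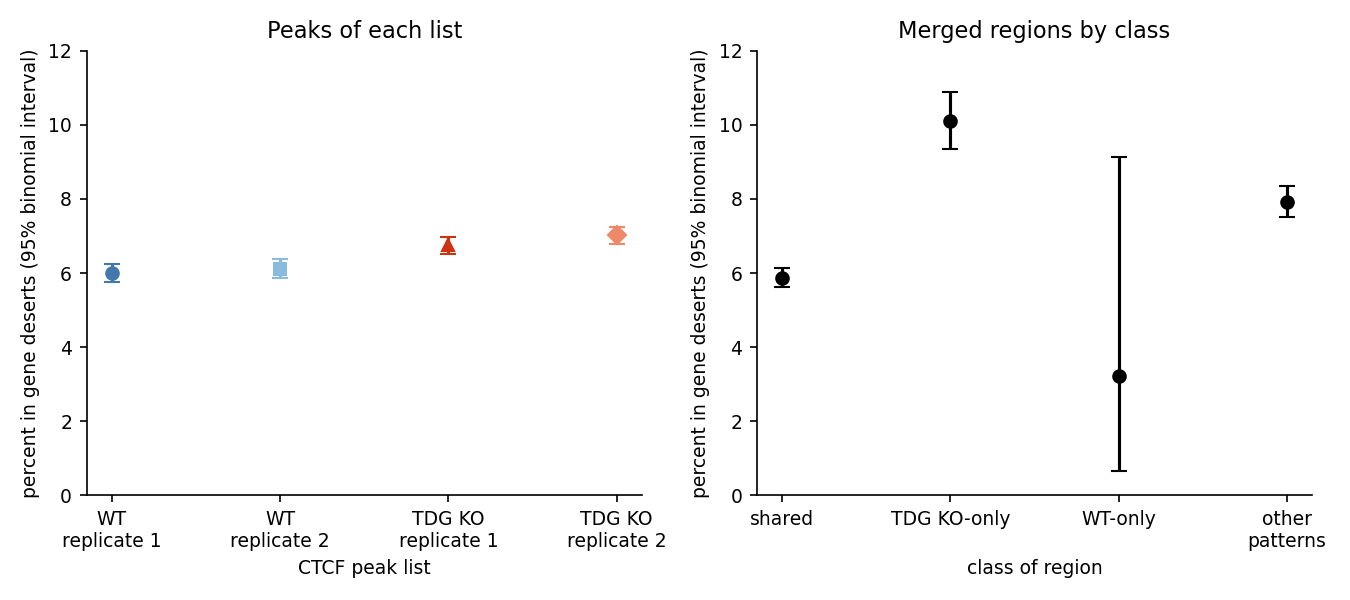
Percent of CTCF peaks of each list (left) and of merged regions of each class (right) that lie more than 50 kb from every gene span, with exact 95% binomial intervals (counting error only). WT lists stand at 5.99% and 6.12%, TDG KO lists at 6.74% and 7.02%; TDG KO-only regions at 10.1% lie above shared regions at 5.87%, and the interval of the 93 WT-only regions spans 0.670% to 9.14%.

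The median rank of the desert regions differed little between the genotypes. It was 39.7 ± 0.755 in WT and 41.3 ± 0.349 in TDG KO (SD, n = 2), 1.63 points higher in TDG KO (exact permutation p = 0.333). The median of the change of single regions was -0.044 points, of the other sign. The median ranks of the genotypes overlapped with RefSeq spans, alone or added to those of the table, and without the weakest peaks of each list. Spearman correlations of the ranks of the 1921 regions between lists were 0.776 for the WT pair, 0.807 for the TDG KO pair and 0.722 to 0.782 across genotypes, as a description over regions that share libraries. The pair of WT replicate 1 and TDG KO replicate 2, at 0.782, was above the WT pair.

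No single desert region passed the test of a rank change. The limma test on rank percentiles, with Benjamini-Hochberg adjustment over all 32740 shared regions, called 0 of 1921 desert regions, where 0% of all shared regions were called (lowest adjusted p = 0.430). The median SE of a change was 11.8 points. On simulated lists the test recovered a minority of planted changes far larger than this error, so 0 calls says little even of large changes. At an unadjusted p under 0.05 stood 168 desert regions (8.75%), against 9.05% of all shared regions. Ranks of the genotypes did not overlap, with TDG KO higher, in 393 (20.5%) against 19.1% of all, and with TDG KO lower in 355 (18.5%) against 20.2%. Both shares lie near those of all shared regions. On normal scores of the ranks, which spread the ends of the scale, limma called 8 desert regions (0.416%), 2 higher and 6 lower in TDG KO, where 0.379% of all shared regions were called (0.18% higher and 0.199% lower). Of 200 planted changes of 2 in simulated normal scores the test recovered 0%, and of 200 changes of 4 it recovered 60.5%. The 8 called regions included changes of 1.69 and -1.72, so the simulation does not give the power in these lists. With the replicate number as a block, on percentiles, limma called 1, lower in TDG KO, where 0.00611% of all were called.

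Of those 8 called on normal scores, 5 lay on the X chromosome, 2 on chromosome 11 and 1 on chromosome 6. On the X chromosome 3 neighbours lay in the interval between Gm15262 and Prkaca-ps1. The first, at chrX:161370947-161371319, ranked at 98.7 and 99.4 in WT against 6.38 and 10.3 in TDG KO, a change of -90.7 points (SE 14.7, limma adjusted p = 0.430 on percentiles and 1.51e-05 on normal scores). The second, at chrX:161385810-161386178, ranked at 99.96 and 99.6 in WT against 17.5 and 59.95 in TDG KO. The third, at chrX:161399115-161399592, ranked at 99.99 and 99.7 in WT against 15.9 and 67.4 in TDG KO. All 3 were near the top of both WT lists and lower in both TDG KO lists, although the TDG KO lists differed by more than 40 points in 2 of them. The other 2 on this chromosome, at chrX:163647278-163647573 and chrX:163669917-163670217, lay between Grpr and Rnf138rt1. The latter went from 72.8 and 55.7 to 7.30 and 10.3. On chromosome 6, chr6:104028511-104028801 went from 79.1 and 85.9 to 21.4 and 22.6. On chromosome 11, chr11:91387191-91387537, 188 kb from Kif2b, went from 32.4 and 33.2 to 90.2 and 92.0, and chr11:26996738-26997090 from 12.2 and 9.53 to 74.5 and 59.95. The genotypes did not overlap in any of these 3.

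Chromosome 11 and the X chromosome stood apart as wholes. The 69 desert regions of chromosome 11 had median ranks of 32.4 and 39.2 in WT against 68.1 and 56.7 in TDG KO. Of these, 46 (66.7%) were higher in both TDG KO lists than in both WT lists, against 63.9% of the 2278 shared regions of the chromosome, and 0 were lower, against 0.702%. The difference of medians was 25.3 points for its other shared regions and 23.4 for its desert regions. On the X chromosome 42 desert regions had medians of 22.4 and 23.0 in WT against 17.0 and 15.5 in TDG KO, 4 without overlap higher (9.52%, against 7.54% of its 690 shared regions) and 18 lower (42.9%, against 38.7%). The difference of medians was -8.59 points for its desert regions and -11.8 for its other shared regions. The WT lists were unlike each other on the X chromosome, with 1501 peaks in replicate 1 and 966 in replicate 2. The TDG KO lists lay between them, at 1156 and 1259 peaks. The 54 desert regions of chromosome 6 stood at 48.5, 51.1, 48.5 and 48.7. On the chromosomes other than X, 6 and 11, 330 of 1756 desert regions were higher without overlap (18.8%, against 15.4% of all shared regions there) and 326 lower (18.6%, against 21.5%), with a median change of -0.337 points. RNA values of these chromosomes also stood apart. Of 1028 tested genes on chromosome 11, 65.6% were higher in TDG KO and 5.25% lower (limma, adjusted p under the threshold), with a median log2 change of 0.37. On the X chromosome 26.5% of 446 tested genes were higher and 39.0% lower, against 19.7% and 31.8% of 9999 genes on the chromosomes other than X, 6 and 11. Whether the genotypes carry the same number of copies of chromosomes 11, 6 and X is not stated in the labels, and its part in these values, including the 8 calls on normal scores, was not tested.

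**Figure D3:**
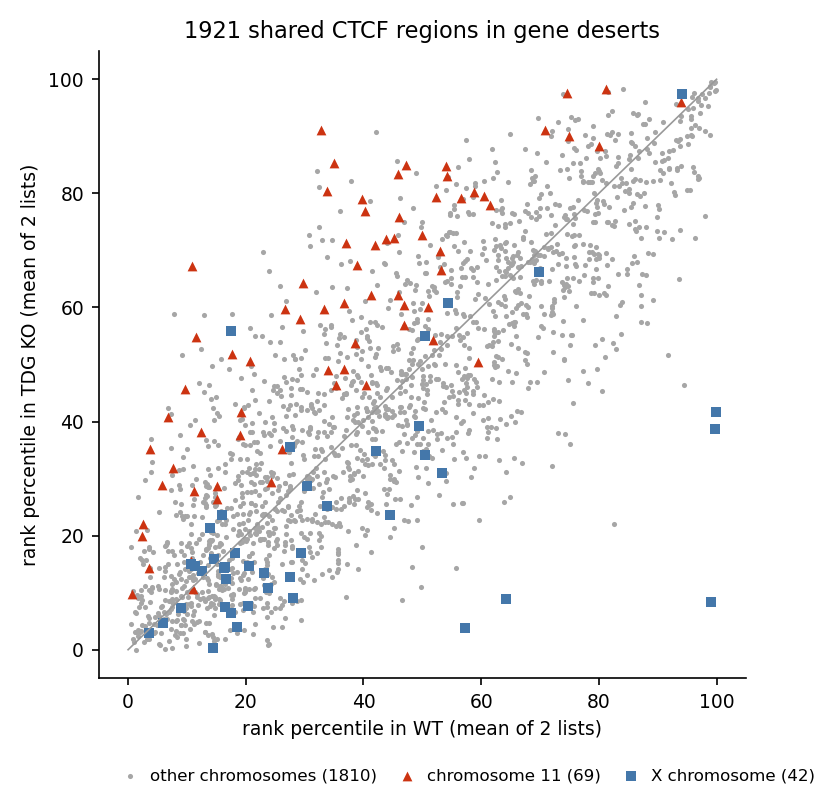
Mean rank percentile of each of the 1921 desert regions in the TDG KO lists (vertical) against the WT lists (horizontal), with the line of equality. Most of the 69 regions of chromosome 11 (triangles) lie above the line; the 3 neighbouring X chromosome regions (squares) lie at the far right below it.

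Chromosomes held unequal shares. Of the shared regions of chromosome 12, 12.3% were desert regions, of chromosome 13 11.8% and of chromosome 8 10.3%. On chromosomes 11, 6 and 5 the shares were 3.03%, 3.06% and 3.12%. Across 20 chromosomes, the Y left out, this share went with the part of the chromosome that is desert (Spearman 0.881) and against genes per Mb (Spearman -0.808). Both are descriptions, since the rule itself uses gene spans.

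**Figure D4:**
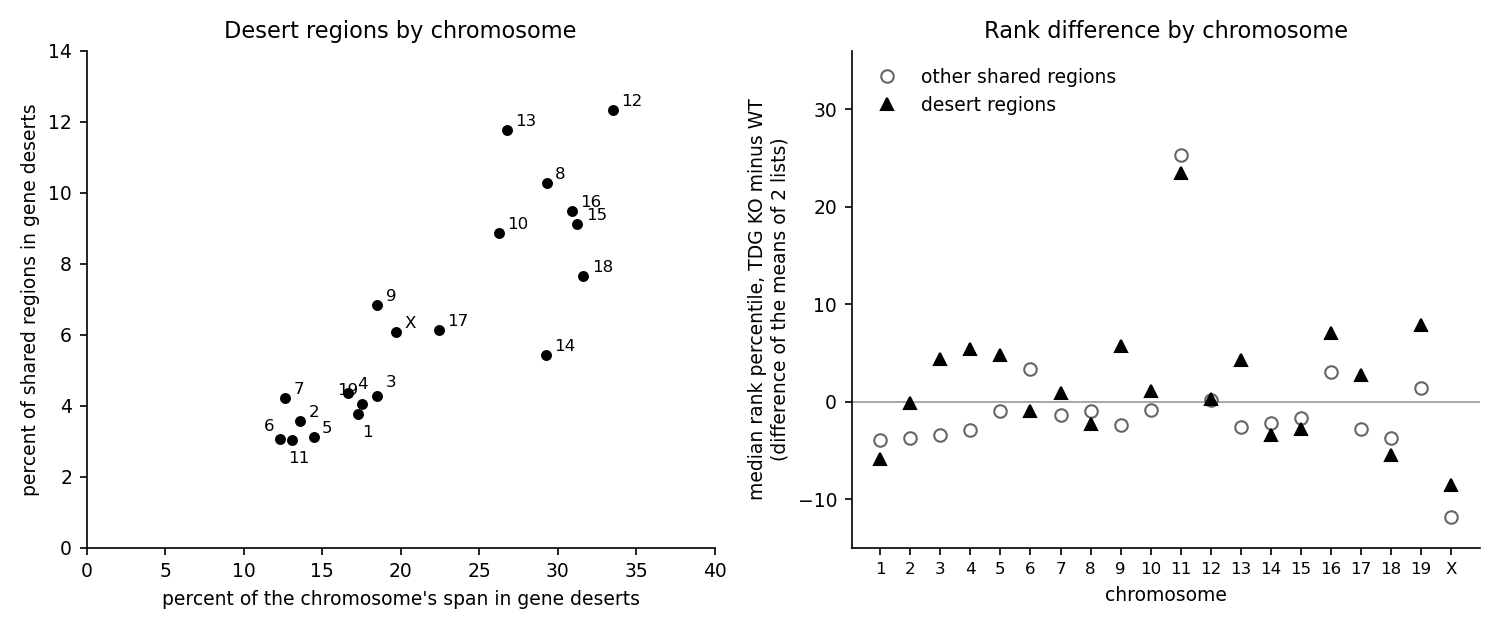
Left, percent of each chromosome's shared regions that are desert regions against the percent of its span in gene deserts, chromosome names beside the points; right, median rank percentile in TDG KO minus WT for desert regions (triangles) and other shared regions (circles). The Y chromosome, with 22 shared and 0 desert regions, is left out; of the 20 chromosomes drawn, 12 stands highest at 12.3% and 11 lowest at 3.03%; chromosome 11 is 23.4 points higher in TDG KO for desert regions and 25.3 for others.

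Of 14 loci of developmental genes, many known for long-range control, 9 had a desert region within 500 kb: Bmp2 had 5, Irx3 3, Sox9 2, and Sox2, Nr2f1, Epha4, Sall1, Otx2 and Mycn 1 each. Zfp42 and Meis1 were among those with 0. The share of all genes with a desert region this near was not taken, so 9 of 14 is a description. Of the shared regions within 500 kb, desert regions were 1 of 19 near Sox2 and 1 of 14 near Otx2, but 5 of 8 near Bmp2. Near Bmp2, a bone morphogenetic protein gene, the best-ranked lay at chr2:133113668-133114061 with ranks of 85.5 and 86.7 in WT against 82.0 and 68.4 in TDG KO. Bmp2 RNA was 0.189 and 0.176 FPKM in WT and 0.551 and 0.389 FPKM in TDG KO, below the level tested. Near Sox2, a pluripotency factor, the region at chr3:35103181-35103564 ranked at 84.3 and 68.6 in WT against 69.3 and 88.3 in TDG KO. Near Sox9, a regulator of cartilage and gonad development, chr11:112524792-112525350 ranked at 19.3 and 39.2 in WT against 44.8 and 71.2 in TDG KO. That change was not called (limma adjusted p = 0.616). The region lies on chromosome 11, where the difference of medians was 23.4 points for desert regions and 25.3 for other shared regions. Near Otx2, a factor of the early epiblast and forebrain, chr14:48889053-48889294 was weak in every list, at 11.5, 8.00, 2.24 and 13.9. Otx2 RNA fell from 10.4 and 10.98 to 5.29 and 5.79 FPKM (log2 change -0.84, SE 0.079, limma adjusted p = 0.000288).

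Most genes at the edges of these deserts were below the level tested. The 1026 deserts were bordered by 2829 genes, of which 500 (17.7%) had a mean FPKM of at least 1 and were tested, against 25.6% of all genes and 12.2% of the 5465 genes bordering intervals over 100 kb without a desert region. The nearest gene expressed at that level lay a median of 198 kb (quartiles 94.4 and 424 kb) from a desert region. Of the 500 bordering genes, limma on log2(FPKM + 1) with Benjamini-Hochberg adjustment over 12035 genes called 261 (52.2%) between the genotypes, where 54% of all genes were called. Higher in TDG KO were 87 (17.4%), against 24.4% of all genes, and lower 174 (34.8%), against 29.5%. The median log2 change was -0.10 for bordering genes and -0.04 for all genes. Without genes on chromosomes X, Y, 6 and 11, 16% of 470 bordering genes were higher and 34.7% lower. The shares of all 9994 genes left were 19.4% and 31.4%, and the medians -0.10 for bordering and -0.08 for all genes. Genes at the border of intervals over 100 kb without a desert region gave 20.3% higher and 32.7% lower of 664 tested. Under upper-quartile scaling, which moved the median of all genes from -0.04 to 0.07, the split of bordering genes turned to 124 higher and 107 lower, and that of all genes to 3855 and 2214. Lower calls made up 66.7% of the calls among bordering genes against 54.7% among all genes as deposited, and 46.3% against 36.5% after the scaling.

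Among the bordering genes that rose furthest, 1700108F19Rik went from 0.158 and 0.228 to 8.86 and 10.6 FPKM. The nearest desert region, 53.3 kb from it, ranked at 72.2 and 24.2 in WT against 28.2 and 71.9 in TDG KO, so its genotypes overlapped. Dazl, a germ cell RNA-binding protein, rose from 4.14 and 5.44 to 22.7 and 21.0 FPKM (log2 change 1.99, SE 0.114, adjusted p = 4.37e-05), and the only desert region of its interval ranked between 0.237 and 7.86 in the 4 lists. Sfmbt2, an imprinted polycomb-group gene, rose from 1.39 and 1.25 to 7.31 and 6.24 FPKM, and Gm13261, which shares its span in the gene table, from 0.659 and 0.611 to 6.58 and 6.85 FPKM. Without strand, the reads of this pair cannot be told apart. Grhl2, an epithelial transcription factor, rose from 2.14 and 2.26 to 9.03 and 8.84 FPKM (log2 change 1.64, SE 0.080). Its desert held 6 regions, one of them among the 5 strongest of all. Epcam rose from 30.1 and 33.6 to 57.0 and 56.9 FPKM (log2 change 0.82, SE 0.070), while the strong region beside it stayed above rank 99 in every list. Slc38a4 rose from 48.4 and 50.3 to 76.5 and 69.5 FPKM (log2 change 0.55, SE 0.069).

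Among those that fell furthest, Sfrp1, a secreted inhibitor of WNT signalling, went from 20.2 and 20.1 to 5.88 and 5.66 FPKM (log2 change -1.64, SE 0.067). Sfrp1 had a desert on either side. The nearest region on one side, at 67.1 kb, ranked at 49.1 and 35.1 in WT against 41.8 and 41.7 in TDG KO. On the other side, the region at 55.4 kb ranked at 29.9 and 11.6 in WT against 11.4 and 28.6 in TDG KO. The mean changes were -0.33 and -0.73 rank points, and the genotypes overlapped at either region. Mgmt, a repair enzyme for alkylated guanine, fell from 45.2 and 44.7 to 15.6 and 18.1 FPKM. Tfcp2l1, a transcription factor of naive pluripotency, fell from 111.4 and 111.6 to 52.7 and 46.5 FPKM. The only region of its interval, 74.6 kb away at chr1:118759612-118759947, ranked at 81.8 and 68.3 in WT against 56.1 and 16.1 in TDG KO. The genotypes did not overlap, with TDG KO lower, as in 20.2% of all shared regions, and the change was not called (limma adjusted p = 0.542). Fst, an inhibitor of activin, fell from 11.5 and 9.58 to 3.44 and 4.26 FPKM, with its single region at 34.4 and 31.6 in WT against 14.05 and 12.6 in TDG KO (adjusted p = 0.552, without overlap). On the X chromosome Ap1s2, a clathrin adaptor subunit gene, fell from 13.99 and 15.98 to 6.33 and 5.92 FPKM. Its region, 75.3 kb away, ranked at 28.4 and 0.425 in WT against 0.0626 and 0.461 in TDG KO. The nearest desert regions of these 20 genes say little of a change, since the test called 0% of all shared regions.

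**Figure D5:**
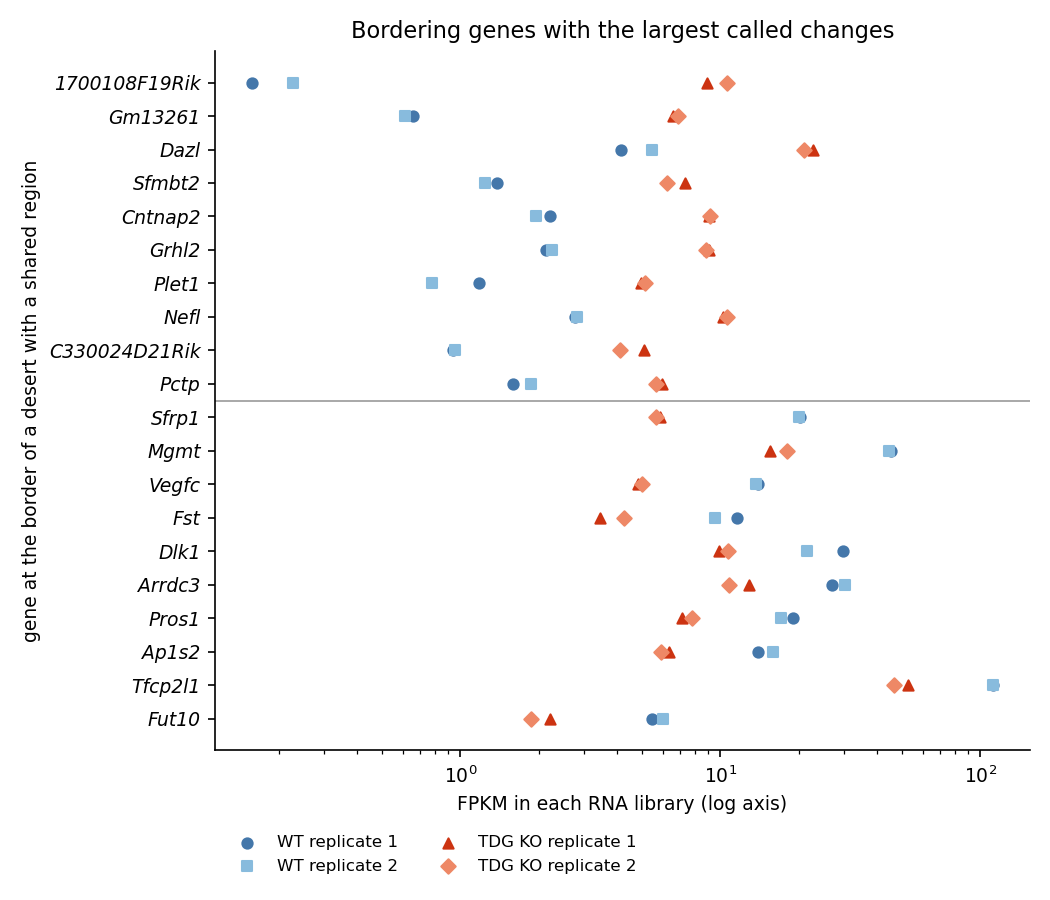
FPKM (log axis) in each of the 4 RNA libraries for the 10 bordering genes with the largest called rise (above the line) and the 10 with the largest called fall (below it). The genes were chosen by these values, so the gap between the genotypes is a description; 1700108F19Rik goes from at most 0.228 to at least 8.86 FPKM and Sfrp1 from at least 20.1 to at most 5.88 FPKM.

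Of 44 developmental regulators taken as a list, 21 were tested, 6 rose (28.6%, against 24.4% of all genes) and 9 fell (42.9%, against 29.5%), and 6 of the 44 bordered a desert with a region. Sall1, a zinc finger factor with 1 desert region within 500 kb, fell from 47.6 and 48.3 to 29.0 and 26.1 FPKM. Of 39 cadherin and neuronal adhesion genes, 4 were expressed enough to be tested. Cntnap2 rose from 2.21 and 1.96 to 9.01 and 9.14 FPKM, Cdh2 also rose, and Cdh11 and Pcdh7 fell. Without TDG KO replicate 2 the adjusted p was 0.0586 for Cdh2 and 0.0597 for Pcdh7. Of 20 CTCF, cohesin and TDG pathway genes, 19 were tested, 2 rose (10.5%, against 24.4% of all genes) and 15 fell (78.9%, against 29.5%). The 15 include Tdg itself, whose fall is set by the knockout. Ctcf itself went from 48.8 and 52.5 to 42.4 and 41.1 FPKM (log2 change -0.27, SE 0.064, adjusted p = 0.0118), a p of 0.0731 with upper-quartile scaling, 0.0847 without WT replicate 2 and 0.0597 without TDG KO replicate 2. Ctcfl, the germ cell paralog that binds similar DNA, rose from 0.673 and 0.599 to 3.16 and 2.83 FPKM. The 10 embryonic stem cell markers, none at 0, summed to 8096 and 8894 FPKM in WT and 6207 and 6391 FPKM in TDG KO. Among them 2 were higher (20%, against 24.4% of all genes) and 5 lower (50%, against 29.5%). The 10 fibroblast markers, none at 0, summed to 573 and 415 FPKM in WT and 464 and 523 FPKM in TDG KO. Their mean levels ran from 1.29 to 281 FPKM, so the sums rest mostly on the most abundant. Among them 1 was higher (10%) and 7 lower (70%), against the same shares of all genes. Their median log2 change was -0.67, against -0.04 for all genes. The part of fibroblasts in the results was not tested. In bulk samples fewer cells of a type and less RNA per cell cannot be told apart.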

How the data were processed

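The authors deposited 1 CTCF peak list per library with a score per peak. The score's meaning was not stated in the labels or headers, and it served only to rank regions within a list, higher as stronger. Tools in the submitters' processing notes are MACS2 2.2.1, Bowtie2 2.2.9, deepTools, Cufflinks 2.2.1, Cuffdiff and TopHat2 2.1.1, with mm10. FPKM of 46939 genes per library were deposited by the authors without counts, so depth is unknown. The authors' deposited table also holds log2 fold changes, test scores, p-values and q-values, of which none was used here, only its gene spans. A span can join several genes, and strand use is not given.

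Peaks overlapping by 1 bp or more were merged. Coordinates are mm10, 1-based. Rank percentiles, and log2(FPKM + 1) of 12035 genes with mean FPKM of at least 1, were tested with limma 3.58.1 (R 4.3.3, trend, Benjamini-Hochberg, threshold 0.05). Fold changes on this scale understate low genes. Single values had exact 2-sided permutation tests. Named were regions extreme in distance, rank or rank change, those near 14 loci, genes bordering them, and the 10 bordering genes most changed each way. The gene lists, regions and tests were chosen with earlier results of these data known. The merging and both limma tests were checked on simulated data. RNA polymerase II, IgG and input libraries were not analysed here. No genome sequence was used beyond RefSeq promoter windows. Some items among the lists and loci are not reported here.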

Additional observations from a re-analysis of the deposited data

How the results depend on the processing

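The number of desert regions followed the definition: 3840 at 25 kb from genes, 748 at 100 kb and 3712 with the spans of genes with FPKM above 0 alone. With RefSeq spans, an alternative added after seeing the data, there were 887, and with both sets of spans 685. The ratio of TDG KO-only to shared desert share was 1.43 at 25 kb, 2.05 at 100 kb, 1.90 without chromosomes X, Y, 6 and 11, 2.30 with RefSeq spans and 2.37 with both, and 1.47 to 1.71 with single lists left out. The rank difference, the width difference and the median rank difference between genotypes kept their direction under every alternative run. The replicate numbers did not pair the lists (correlation of deviations -0.098). With the replicate block limma called 1 desert region for rank change, where 0.00611% of all shared regions were called, and on normal scores 8. For expression the block moved the called bordering genes from 261 to 267, and among the named genes it changed the call of Zfp42 alone. Among named genes, the log2 change of Irak1bp1 turned to 0.044 with upper-quartile scaling and that of Msl3l2 ranged from -0.0026 to 0.15 with single libraries left out, both uncalled throughout. The causes were not tested. Ctcf, Cdh2, Pcdh7 and Mycn each lost their call under at least 1 alternative.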
